A study of Homo sapiens with 16 samples.

Results

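Histones are the proteins around which nuclear DNA is wound, and 9 of their genes are described here: H1-2 (linker histone H1), H2AC6 and H2AW (H2A), H2BC4, H2BC5, H2BC12 and H2BC21 (H2B), H4C8 (H4) and H2AJ, a variant H2A. They were taken by name from 54127 gene identifiers, and their levels with and without itraconazole were known when they were chosen. Those levels, with the fits and calls made on them, are therefore given as a description and not as independent tests. All 9 were found in the files. Of 64 canonical (replication-linked) histone genes in the annotation, 33 had an identifier in the files, and the other 31 were not analysed here.

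The core histones H2A, H2B, H3 and H4 form the nucleosome and the linker histone H1 binds the DNA between nucleosomes. Most of their genes are canonical: they lie in clusters, are used mainly while DNA is being replicated, and give short mRNAs that end just after a stem-loop and carry no poly(A) tail. The stem-loop is bound by SLBP and the end is cut by a complex that contains the U7 small nuclear RNA. Some of these genes can also give longer mRNAs that run past the stem-loop and are polyadenylated, and such mRNAs are known from differentiated and non-dividing cells. Variant histones come from separate genes, can be made throughout the cell cycle and mostly give polyadenylated mRNAs.

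RNA was sequenced from HT55 and SW948. Both are established lines of colorectal cancer cells and were grown as adherent cultures in serum. Each line received itraconazole, an antifungal drug that blocks a step of sterol synthesis, at 5 µM, or its solvent DMSO, and was sampled at day 6. Each combination of line and treatment had 4 libraries, 16 in 4 groups. Counts assigned to genes ran from 8269406 to 11110814 per library. The study's methods describe the replicates of its RNA sequencing as biological, and the labels only number them. The 6 colon epithelium markers (EPCAM, CDH1, KRT8, KRT18, VIL1 and CDX2) were present in all 16 libraries. Of the markers of other cell types, CD3E and COL3A1 had no count, PTPRC and ALB had 1 count each in 1 library, and COL1A1 had 2 to 11 counts in HT55. In SW948 COL1A1, a collagen gene, had 29 to 44 counts with DMSO and 75 to 105 with itraconazole, a rise of 1.65 ± 0.18 (SE) on the log2 scale (edgeR adjusted p = 9.01e-07). In the same line KRT8, a keratin of epithelial cells, rose by 1.03 ± 0.13 (edgeR adjusted p = 6.99e-06), while CDX2, an intestinal transcription factor, fell by 0.88 ± 0.16 (adjusted p = 0.000166) and VIL1, a microvillus protein, fell by 0.63 ± 0.070 (adjusted p = 1.27e-06). EPCAM and KRT18 also rose in SW948, by 0.58 ± 0.063 and 0.72 ± 0.082, and CDH1 fell by 0.23 ± 0.082. In HT55 EPCAM, CDH1 and CDX2 rose by 0.51 ± 0.089, 0.55 ± 0.072 and 0.43 ± 0.070. KRT8, KRT18 and VIL1 were at 0.11, -0.14 and 0.19 in HT55 (edgeR adjusted p = 0.158, 0.0803 and 0.0628). The part of these markers in the values below was not tested.

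Whether polyadenylated RNA was selected is not given in the sources used here. RN7SK, an abundant nuclear RNA without a poly(A) tail, was counted at 8.0 to 12.2 counts per 1000000 gene counts (CPM) in HT55 with DMSO and 8.4 to 9.3 with itraconazole. In SW948 it was counted at 3.3 to 7.2 CPM with DMSO and 9.4 to 16.6 with itraconazole, 1.24 ± 0.22 (SE) on the log2 scale. Its part in the values below was not tested. Reads with more than 1 alignment, 21.99% to 27.9% of the reads of a library, were counted in no gene. CPM here was set on 1 scale over all 16 libraries, with normalisation factors of the TMM method, which ran from 0.868 to 0.970 in the itraconazole libraries and from 1.02 to 1.18 in the DMSO libraries.

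The stem-loop was looked for because the short form of a histone mRNA ends just after it and the longer ones run past it. The search took 16 bases of the form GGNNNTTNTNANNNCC whose first and last 6 bases pair, on the gene's own strand, within 150 bases after a stop codon. It was found in 8 of the 9 genes and in 22 of 23 other canonical histone genes with an identifier. By comparison it was found in 3 of 11 variant genes and in 67 of 12274 protein-coding genes (0.546%) on the 11 chromosomes read. The 67 include the genes of these histone lists, and 34 were outside the lists and are not named here. In capitals are the paired stem and in lower case the loop, each read on the gene's strand from GRCh37 (hg19).
H1-2, chr6:26055972-26055987, minus strand, 28 bases after the stop codon: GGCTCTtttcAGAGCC
H2AC6, chr6:26124897-26124912, plus strand: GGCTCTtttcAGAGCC
H2AW, chr1:228645070-228645085, minus strand: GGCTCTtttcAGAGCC
H2BC21, chr1:149857738-149857753, minus strand, 57 bases after the stop codon: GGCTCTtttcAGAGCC
H2BC4, chr6:26123700-26123715, minus strand: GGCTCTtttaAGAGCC
H2BC5, chr6:26158815-26158830, plus strand: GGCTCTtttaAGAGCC
H2BC12, chr6:27114145-27114160, minus strand: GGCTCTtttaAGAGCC
H4C8, chr6:26285359-26285374, minus strand: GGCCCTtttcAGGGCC
The stem was the same in all of these but H4C8, and the loop ended in c or a. H2AJ, on chromosome 12 at 14927339 to 14930936, had no match in this window.

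The annotation held transcripts that run more than 100 bases past the stem-loop for 6 of the 9 genes and for 4 of the 23 other canonical genes. Of 20 annotated coding transcripts of the 9 genes, 13 kept the stem-loop, 4 had it removed by splicing and the 3 of H2AJ had none. These include transcripts of H2AC6, H2BC4, H4C8, H2AW and H2AJ annotated for nonsense-mediated decay, a route of mRNA breakdown. Each H4C8 transcript that runs more than 100 bases past the stem-loop was of this type. The stem-loop was spliced out of 1 transcript of H2AC6, both spliced transcripts of H2BC4 and the spliced transcript of H2BC5. H2BC21 was annotated as 1 exon of 2224 bases that runs 1729 bases past the stem-loop and ends near the poly(A) signal AATAAA. For H1-2 and H2BC12 the only annotated transcript was the short form, which ends 4 and 5 bases past the stem-loop. The files give 1 count per gene, so the short and long forms of a gene were not separated.

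**Figure D1:**
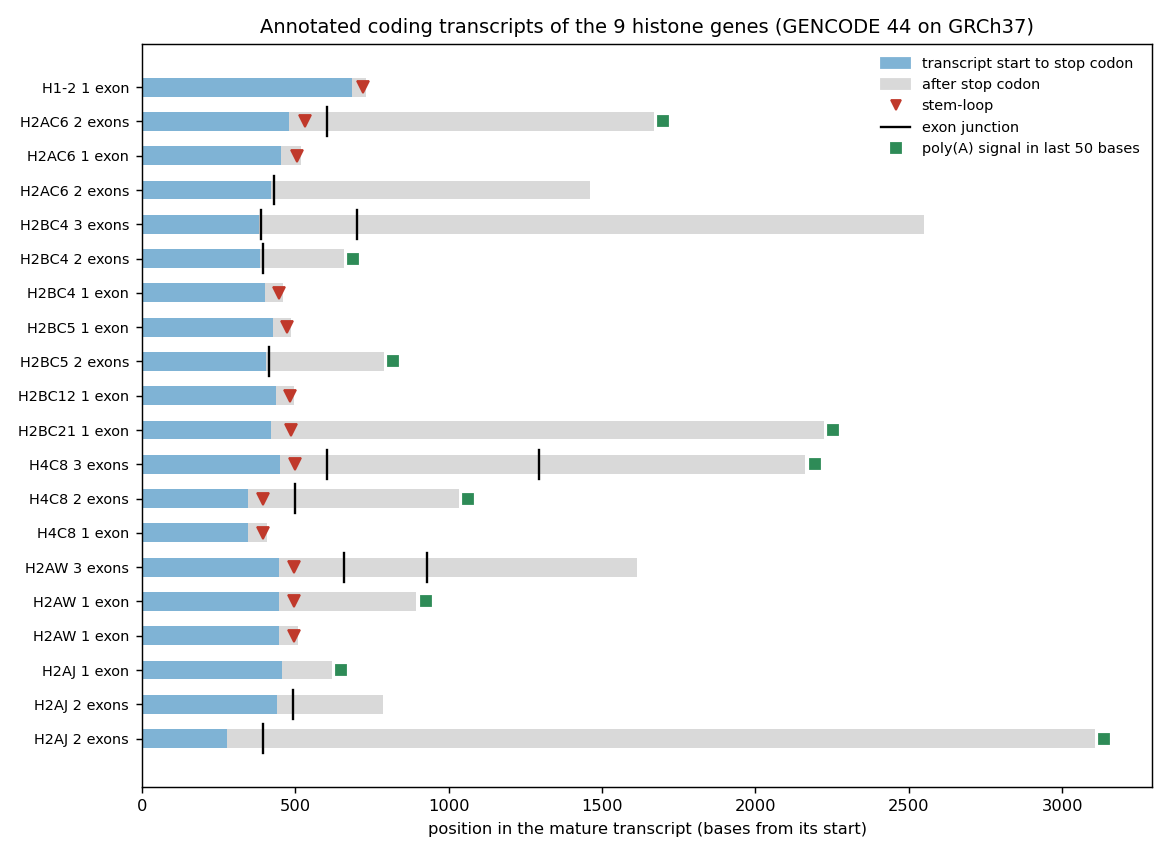
Annotated coding transcripts of the 9 histone genes, drawn from the start of each mature transcript, in bases. Transcripts annotated for nonsense-mediated decay are drawn as well. Blue runs to the stop codon and grey follows it, red triangles mark the stem-loop, black lines exon junctions and green squares a poly(A) signal (AATAAA or ATTAAA) in the last 50 bases. H1-2 and H2BC12 have only a short form, whereas H2BC21 has 1 exon of 2224 bases.

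Several of the genes have a neighbour read the other way from nearly the same start. H2AC6 and H2BC4, both among the 9, start 219 bases apart. H2BC21 starts 236 bases from H2AC20, H2AW starts 230 bases from H2BU1, and H2BC12 starts 251 bases from H2AC12, which was not analysed here. Promoters of H2AC6 and H2BC21 are shown as examples of genes that were higher with itraconazole in both lines and have all 3 motifs searched. H2BC4 and H2BC12 also met these conditions and are not shown. The windows run from 250 bases before to 50 after the annotated start and come from RefSeq on GRCh38.p14, and capitals mark the motifs on either strand.
H2AC6, chr6:26123922-26124221, plus strand, overlapping the window of H2BC4: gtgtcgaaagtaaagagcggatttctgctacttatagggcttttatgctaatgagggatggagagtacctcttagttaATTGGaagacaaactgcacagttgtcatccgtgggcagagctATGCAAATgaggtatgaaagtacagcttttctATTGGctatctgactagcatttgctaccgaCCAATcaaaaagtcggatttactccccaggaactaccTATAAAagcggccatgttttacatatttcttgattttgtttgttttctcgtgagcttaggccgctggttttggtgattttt
H2BC21, chr1:149886633-149886932, minus strand: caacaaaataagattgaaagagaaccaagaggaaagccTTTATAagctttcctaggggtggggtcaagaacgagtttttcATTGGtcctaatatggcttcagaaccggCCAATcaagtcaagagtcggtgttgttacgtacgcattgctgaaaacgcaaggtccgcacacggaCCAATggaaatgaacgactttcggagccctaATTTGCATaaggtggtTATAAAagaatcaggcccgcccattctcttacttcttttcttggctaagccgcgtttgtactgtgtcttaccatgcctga
The octamer ATTTGCAT, which is bound by OCT1 in histone H2B promoters, was present in a window of 4 of the 9 genes, the CCAAT box in 8 and TATAAA in 5. Among the other canonical genes with a window the counts were 9, 20 and 16 of 21. Over all 35116 windows of this length the shares were 1.77%, 34.6% and 11.5%. In H2AC6 and H2BC4 the octamer is the same site, as their windows overlap. A match here is a run of letters and not a bound site.

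With itraconazole, 8 of the 9 genes were higher in HT55 and 7 were higher in SW948, with no overlap between treated and DMSO libraries (H2BC4, too low to be fitted in SW948, is among the 7). H2AJ was the exception in HT55, where every treated library was lower. In SW948 the libraries overlapped for H4C8 and H2AJ. Over all genes tested, 25.0% were higher and 24.4% lower without overlap in HT55, and 37.3% were higher in SW948. The summed level of the 9 genes was 228.9 ± 4.66 CPM (SD, n = 4) in HT55 with DMSO and 545.9 ± 83.8 CPM with itraconazole. In SW948 the sum was 52.3 ± 4.02 CPM with DMSO and 216.4 ± 76.3 CPM with itraconazole. In these cell populations, a change in the number of cells that use a gene and a change in RNA per cell cannot be told apart.

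**Figure D2:**
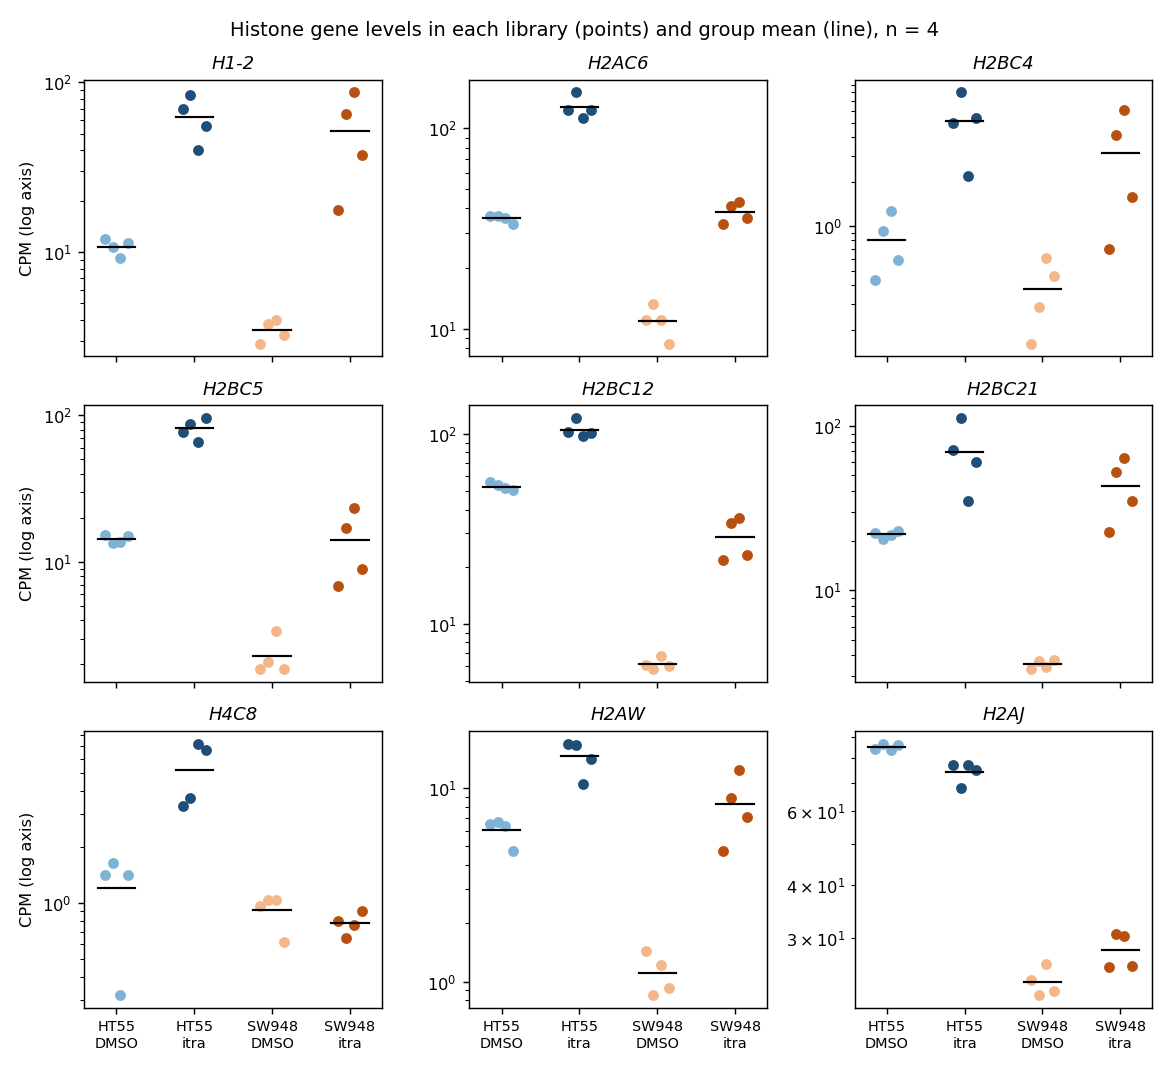
Level of each of the 9 histone genes in every library, in CPM on a log axis, by group (4 libraries each, line = mean). Treated libraries lie above the DMSO libraries of the same line in 8 of 9 genes in HT55 and 7 of 9 in SW948. H2AJ is lower with itraconazole in HT55, and H4C8 overlaps between the SW948 groups.

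The linker histone H1-2 was at 11.9, 10.7, 9.22 and 11.3 CPM in the HT55 DMSO libraries and at 69.4, 84.7, 39.7 and 55.4 CPM with itraconazole. In SW948 it was at 2.89, 3.78, 3.99 and 3.23 CPM with DMSO and at 17.8, 65.3, 87.5 and 37.2 CPM with itraconazole. Treated and DMSO libraries did not overlap in either line, and the treated SW948 libraries were the more spread, with replicate 1 lowest and replicate 3 highest. Fitted in each line, the log2 fold change of HT55 was 2.52 ± 0.21 (SE), or 5.75-fold, and that of SW948 was 3.86 ± 0.42, or 14.5-fold. Every 50-base window of the exons of H1-2 was unique to it among the annotated transcripts.

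Of the canonical H2A genes, H2AC6 was at 36.7, 36.7, 35.8 and 33.4 CPM in HT55 with DMSO and at 123.3, 151.4, 113.3 and 123.6 CPM with itraconazole. The SW948 values were 11.1, 13.2, 11.01 and 8.39 CPM with DMSO and 33.2, 40.9, 42.8 and 35.6 CPM with itraconazole. Libraries of a group lay close together, the groups of a line did not overlap, and the difference was 1.84 ± 0.093 (log2) in HT55 and 1.77 ± 0.13 in SW948. H2AW, from a small cluster on chromosome 1, was at 6.49, 6.68, 6.36 and 4.74 CPM in HT55 with DMSO and at 17.0, 16.8, 10.6 and 14.2 CPM with itraconazole. In SW948 H2AW was at 1.44, 0.851, 1.21 and 0.924 CPM with DMSO and 4.70, 8.89, 12.5 and 7.11 CPM with itraconazole. All treated libraries of both lines were above their controls, by 1.25 ± 0.18 on the log2 scale in HT55 and by 2.83 ± 0.31 in SW948.

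The variant H2AJ differed less between treated and DMSO libraries than H2AC6 and H2AW did. It was at 84.3, 86.8, 84.0 and 86.0 CPM in HT55 with DMSO and 77.4, 68.1, 77.2 and 75.1 CPM with itraconazole, a log2 fold change of -0.20 ± 0.062. Leaving out 1 library at a time, this value passed the adjusted p threshold of 0.05 in 5 of 8 fits. It did not pass without DMSO replicate 1 (-0.19), 2 (-0.18) or 4 (-0.18). In SW948 H2AJ was at 23.9, 21.9, 26.02 and 22.4 CPM with DMSO and 25.6, 30.7, 30.4 and 25.7 CPM with itraconazole. Those groups overlapped, and the log2 fold change of 0.22 ± 0.095 became -0.12 when libraries were scaled by their plain totals. It passed in 3 of 8 fits and not without DMSO replicate 1, 2 or 4 or itraconazole replicate 2 or 3 (0.18 to 0.22).

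The H2B genes H2BC5 and H2BC21 were higher in all treated libraries of both lines. H2BC5 was at 15.1, 13.5, 13.7 and 15.1 CPM in HT55 with DMSO and at 77.0, 87.0, 66.3 and 96.0 CPM with itraconazole. In SW948 its values were 1.84, 2.08, 3.38 and 1.85 CPM with DMSO and 6.80, 17.0, 23.4 and 8.92 CPM with itraconazole. The fitted difference of H2BC5 was 2.50 ± 0.12 (log2) in HT55 and 2.56 ± 0.37 in SW948, where the libraries were more spread. H2BC21, the gene annotated with the long single exon, was at 22.3, 20.5, 21.7 and 23.0 CPM in HT55 with DMSO and at 71.2, 111.9, 34.8 and 59.96 CPM with itraconazole. In SW948 H2BC21 was at 3.29, 3.69, 3.38 and 3.77 CPM with DMSO and 22.6, 52.2, 63.9 and 34.8 CPM with itraconazole. The controls lay within a narrow range in each line while the treated libraries were widely spread. On the log2 scale the difference of H2BC21 was 1.66 ± 0.28 in HT55 and 3.57 ± 0.29 in SW948.

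H2BC12 was at 55.6, 53.9, 51.7 and 50.5 CPM in HT55 with DMSO and 102.0, 121.4, 97.1 and 100.7 CPM with itraconazole. In SW948 it was at 6.09, 5.77, 6.77 and 6.01 CPM with DMSO and 21.6, 33.9, 36.0 and 23.2 CPM with itraconazole. The groups were apart in both lines, by 0.99 ± 0.081 (log2) in HT55 and by 2.17 ± 0.17 in SW948. Only 42.8% of its 50-base windows are unique among annotated transcripts, the lowest share of the 9 genes, so its level is uncertain. The others ranged from 73.7% for H2BC4 to 100% for H1-2 and H2AJ.

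H2BC4 and H4C8 were counted at low levels. H2BC4 had 4, 9, 12 and 5 counts in the HT55 DMSO libraries and 42, 68, 23 and 43 with itraconazole, a log2 fold change of 2.62 ± 0.44. H2BC4 passed the filter in HT55 only through its treated libraries. In SW948 it had 2, 3, 7 and 6 counts with DMSO and 7, 32, 48 and 14 with itraconazole, and was below the filter on low counts, so no fold change was fitted. Treated libraries were higher than controls after scaling in both lines, by a small margin in SW948, where the highest control was at 0.607 CPM and the lowest treated library at 0.700 CPM. Exons of H2BC4 overlap HFE on the other strand, and the sources used here do not say whether strand was used in counting. H4C8, a gene for histone H4, had 13, 16, 3 and 12 counts in HT55 with DMSO and 28, 31, 76 and 54 with itraconazole, a log2 fold change of 2.12 ± 0.40. In SW948 it had 12, 11, 12 and 8 counts with DMSO and 8, 5, 6 and 8 with itraconazole, with overlapping groups. Of the 8 genes that were higher in HT55, H4C8 was thus the one whose SW948 groups overlapped.

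**Figure D3:**
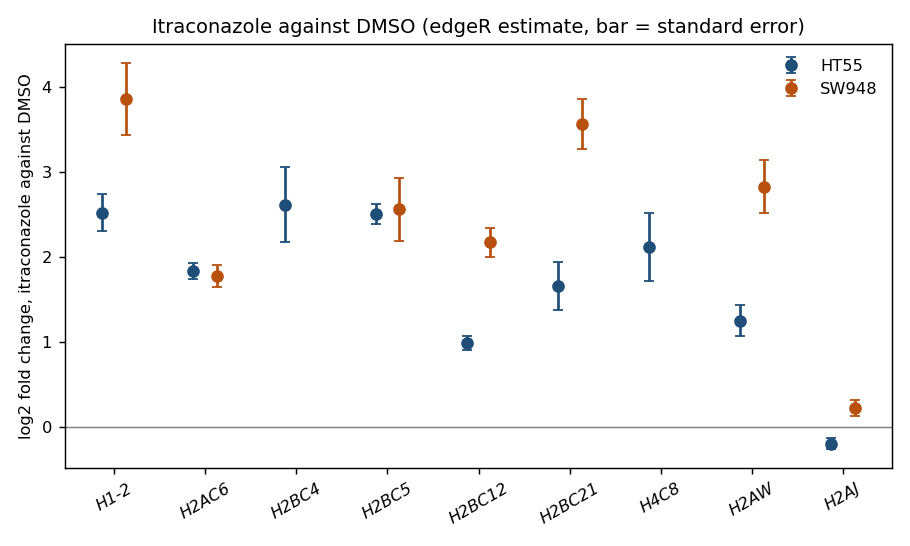
Log2 fold change of itraconazole against DMSO for each gene and line, with its standard error, as fitted by edgeR on the 8 libraries of each line. In SW948 the values of H1-2, H2BC12, H2BC21 and H2AW lie above those in HT55, H2AJ lies at 0.22 against -0.20, H2AC6 and H2BC5 lie within their errors, and H2BC4 and H4C8 have no SW948 value because they were below the filter.

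Across the 9 genes the median log2 fold change was 1.84 in HT55 (9 fitted) and 2.56 in SW948 (7 fitted), against -0.015 and -0.025 over all genes fitted. All 9 fitted genes passed the adjusted p threshold in HT55, 8 higher and 1 lower, where 54.0% of all genes passed, 27.5% higher and 26.5% lower. The 7 fitted in SW948 all passed as higher, where 80.2% of all genes passed and 38.9% were higher. These contrasts chose the genes, so nothing is read from the counts.

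The size of the difference was not the same in both lines for every gene. The log2 fold change in HT55 minus that in SW948 was -1.36 ± 0.53 (SE) for H1-2, -1.22 ± 0.19 for H2BC12, -1.94 ± 0.46 for H2BC21 and -1.61 ± 0.38 for H2AW. For H4C8 it was 2.34 ± 0.56 and for H2AJ -0.45 ± 0.11. It was 0.04 ± 0.17 for H2AC6, -0.33 ± 0.88 for H2BC4 and -0.08 ± 0.39 for H2BC5. Thus 5 genes had the higher value in SW948 and H4C8 in HT55 by the threshold of 0.05 on the adjusted p, which 53.9% of all genes passed, 29.1% with the higher value in HT55 and 24.8% in SW948. The value of H1-2 passed in 6 of the 16 fits without 1 library, and in the 10 others it was -1.40 to -0.98. Those 10 left out HT55 DMSO replicate 1, 2 or 4, HT55 itraconazole replicate 3 or 4, SW948 DMSO replicate 1, 2 or 4, or SW948 itraconazole replicate 2 or 3. With plain library totals H2AJ (-0.25) and H1-2 (-1.16) did not pass. H2BC4 and H4C8, which were below the filter in SW948 alone, were fitted here at low counts.

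The lines also differed with DMSO alone. The DMSO levels were known when the genes were chosen, so the differences are given as a description. Of 8 genes fitted, 7 were higher in HT55 by the threshold of 0.05 on the adjusted p, where 84.2% of all genes passed and 41.6% were higher. H2BC12 was at 52.9 ± 2.27 CPM (SD, n = 4) in HT55 and 6.16 ± 0.428 CPM in SW948, a log2 difference of 3.10 ± 0.078 (SE). On the log2 scale H2BC5 differed by 2.65 ± 0.15, H2BC21 by 2.62 ± 0.11 and H2AW by 2.44 ± 0.20. The differences were smaller for H2AJ, 1.85 ± 0.057, H2AC6, 1.72 ± 0.093, and H1-2, 1.63 ± 0.14. None of these 7 genes had overlapping libraries, which also held for 39.1% of all genes as higher in HT55. H4C8 was at 1.198 ± 0.597 CPM in HT55 and 0.915 ± 0.203 CPM in SW948, a log2 difference of 0.39 ± 0.35. Without HT55 DMSO replicate 3, which had 3 counts, it was 0.72. H2BC4 was below the filter, with 4 to 12 counts in HT55 and 2 to 7 in SW948.

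The order of the 4 groups therefore differed between genes. SW948 with DMSO was lowest for every gene but H4C8, and HT55 with itraconazole was highest for every gene but H2AJ. For H2BC12 all 4 groups were apart, in the order SW948 with DMSO, SW948 with itraconazole, HT55 with DMSO and HT55 with itraconazole. Treated SW948 libraries lay above untreated HT55 libraries for H1-2, overlapped them for H2AC6, H2BC4, H2BC5, H2BC21, H2AW and H4C8, and remained below them for H2BC12 and H2AJ. For H1-2, H2BC4, H2BC21 and H2AW the treated libraries of the lines overlapped each other. H2AJ was ordered by line, with both HT55 groups above both SW948 groups.

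Most of the genes followed the same order among the treated SW948 libraries. Their sum there was 133.9 CPM in replicate 1, 174.9 in replicate 4, 253.6 in replicate 2 and 303.3 in replicate 3, and each of the genes but H4C8 and H2AJ followed that order. The TMM factors of these libraries ran the other way, 0.969, 0.924, 0.888 and 0.870, over a far narrower range. In treated HT55 the sum was lowest in replicate 3, at 448.3 CPM, and highest in replicate 2, at 652.9 CPM, and not every gene followed it. H4C8 was highest in replicate 3 (7.22 CPM), H2AJ was lowest in replicate 2 (68.1 CPM) and H2BC5 was highest in replicate 4 (96.0 CPM). Treated HT55 replicate 3 was also the treated library with the highest summed level of 12 DNA replication genes, 1735 CPM against 946.4 to 1235 CPM in the other treated HT55 libraries and 1972 to 2088 CPM with DMSO. Among treated SW948 libraries the replication sum ran from 499.5 CPM in replicate 1 to 557.3 CPM in replicate 3, in the order of the 9 genes. The part of these values in the spread was not tested. Over all 16 libraries Pearson's r of log2 CPM between pairs of the 9 genes ran from 0.33 (H2BC4 with H2AJ) to 0.981 (H2AC6 with H2BC5), as a description of points that share lines and treatment.

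The other canonical histone genes were counted at low levels. Of 23 with an identifier, 6 had no count in any library, 6 had fewer than 20 counts in all and 11 had 20 or more, whereas each of the 9 genes had 20 or more. Reads with several alignments were held in a row of their own and given to no gene, and the share of 50-base windows unique among annotated transcripts was 0% for H3C15, 0.846% for H3C14, 3.52% for H3C4, 7.94% for H4C11, 16.1% for H2AC7 and 21.7% for H3C13, so the levels of these genes are uncertain. The highest mean levels were those of H2BC11 (2.68 CPM), H2AC11 (2.16), H1-4 (1.39), H2BC15 (0.822) and H3C4 (0.587). Of 4 that could be tested in HT55 and 3 in SW948, H2BC11 alone rose in each line. Of all genes tested, 27.5% rose in HT55 and 38.9% in SW948. H2BC11, an H2B gene with 2 spliced transcripts annotated, had 7 to 15 counts in HT55 with DMSO and 26 to 57 with itraconazole, a rise of 1.77 ± 0.36 on the log2 scale (edgeR adjusted p = 0.00216). In SW948 it had 4 to 10 counts with DMSO and 27 to 67 with itraconazole, a rise of 3.13 ± 0.42 (edgeR adjusted p = 9.78e-06). H2BC11 was not tested in either line where at least 10 counts in every library were required. Between the DMSO groups alone it was below the filter. It thus passed the filter in each line through its treated libraries, and its rise is a description. Its divergent neighbour H2AC11 did not pass, at 0.38 ± 0.20 (log2) in HT55 (edgeR adjusted p = 0.14) and 0.31 ± 0.29 in SW948 (adjusted p = 0.343). H2AC20, the neighbour of H2BC21, had 1 to 8 counts per library, and H2BU1, the neighbour of H2AW, had 0 to 6. H1-4, a linker histone gene, was at -0.62 ± 0.34 in HT55 (edgeR adjusted p = 0.154) and -0.59 ± 0.36 in SW948 (adjusted p = 0.144), where it was -0.92 without itraconazole replicate 3 (adjusted p = 0.0319) and -0.91 with plain library totals (adjusted p = 0.0261). H2BC15 was at -0.17 ± 0.36 in HT55 (edgeR adjusted p = 0.706) and below the filter in SW948, and H3C4 was below it in both lines.

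Some genes below the filter had groups that did not overlap in CPM, and they are named after their values were seen. H1-5, a linker histone gene, had 7, 3, 3 and 9 counts in HT55 with DMSO and 1, 0, 2 and 0 with itraconazole. In SW948 it had 2, 4, 3 and 9 counts with DMSO and 0, 0, 1 and 0 with itraconazole, so that it was lower with itraconazole in both lines. H2BC15 in SW948 was higher, with 0, 1, 6 and 2 counts with DMSO and 8, 9, 6 and 7 with itraconazole. H2AC20 (3 to 8 counts with DMSO and 2 in each treated library) and H3C12 (1 to 2 counts and 0) were lower in HT55. Over all genes fitted, 24.4% were lower without overlap in HT55, and in SW948 37.4% were lower and 37.3% higher. With no filter, 4 of the 23 other canonical genes passed in each line. The share of all genes that passed without it is not given here, so nothing is read from this count.

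Of the variant histone genes, 0 passed as higher in HT55 and 1 in SW948. The stem-loop was found in 3 of these 11 genes (H2AX, H2BU1 and H4-16). H2BU1 and H4-16 also count as canonical genes by their symbols in the annotation. Of 10 tested in HT55, 6 were lower, with a median log2 fold change of -0.34, where 26.5% of all genes were lower. Of 8 tested in SW948, 1 was lower, with a median of 0.03, where 41.3% of all genes were lower and 38.9% higher. H2AZ2, a variant H2A, fell by 0.55 ± 0.085 on the log2 scale in HT55 (edgeR adjusted p = 0.000432) and fell by 0.76 ± 0.063 in SW948 (adjusted p = 8.05e-08). MACROH2A2, an H2A variant with a large added domain, fell by 1.07 ± 0.13 in HT55 (edgeR adjusted p = 9.77e-05) and was below the filter in SW948.

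H3-3B, a gene for the variant H3.3, fell by 0.60 ± 0.076 in HT55 (edgeR adjusted p = 0.000132) and rose by 0.26 ± 0.086 in SW948 (adjusted p = 0.0139), but its SW948 value became -0.08 with plain library totals and 0.20 without DMSO replicate 3, which did not pass (adjusted p = 0.0555). MACROH2A1 fell by 0.41 ± 0.13, H2AZ1 fell by 0.39 ± 0.078 and H2AX, which is phosphorylated at DNA breaks, fell by 0.30 ± 0.098 in HT55 (edgeR adjusted p = 0.0201, 0.00186 and 0.0253). The call of H2AX was lost without DMSO replicate 1, 2 or 3 or itraconazole replicate 1 or 4 (-0.28 to -0.24), and that of MACROH2A1 without DMSO replicate 3 or 4 or itraconazole replicate 1 or 4 (-0.41 to -0.38). In SW948 these 3 had values of 0.08, 0.11 and -0.15 that did not pass (edgeR adjusted p = 0.318, 0.185 and 0.238), although H2AZ1 passed without itraconazole replicate 1 (0.18) and H2AX without itraconazole replicate 3 (-0.26). Neither line had a change that passed for H1-10, H3-3A or the centromere variant CENPA (edgeR adjusted p from 0.177 to 0.975), nor HT55 for H4-16 (adjusted p = 0.642). With plain library totals, however, H3-3A (-0.41, edgeR adjusted p = 2.56e-05), CENPA (-0.35, adjusted p = 0.016) and H2AX (-0.49, adjusted p = 0.00142) passed as lower in SW948. H1-10 passed as higher in HT55 without itraconazole replicate 3 (0.28) and in SW948 without itraconazole replicate 1 (0.30). H2BU1 was below the filter in both lines and H4-16 in SW948.

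**Figure D4:**
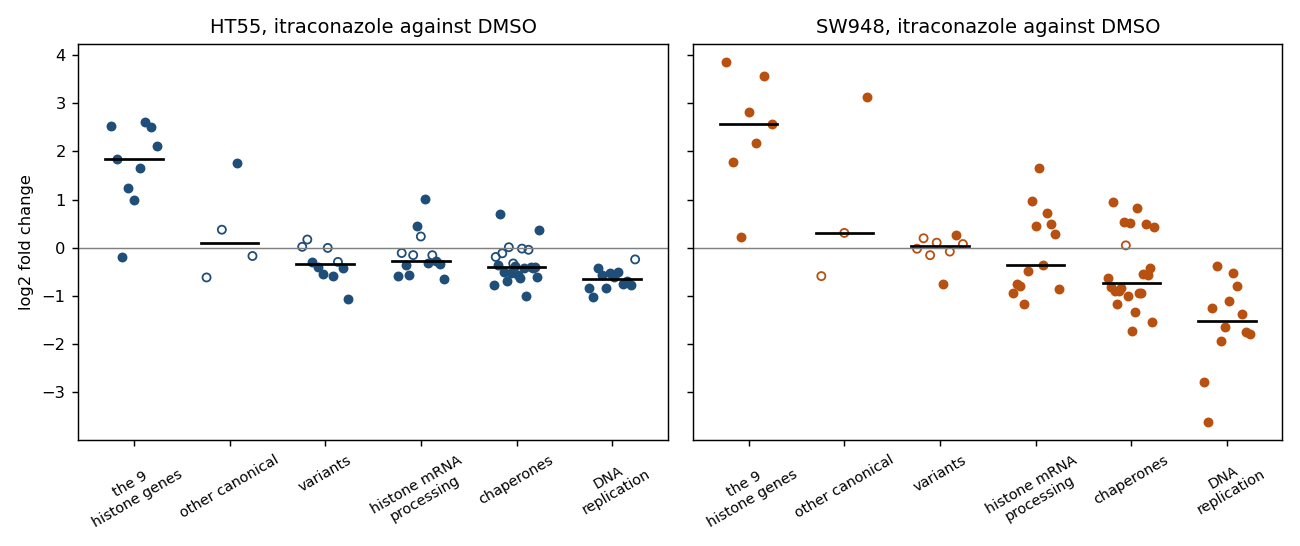
Log2 fold change of itraconazole against DMSO for the 9 histone genes and 5 gene lists, by line. The list marked as histone mRNA processing also holds regulators of histone gene transcription. All lists were chosen with earlier results of these data known. Each point is a gene that passed the filter, filled where the edgeR adjusted p was under 0.05, and the bar is the list median, 1.84 and 2.56 for the 9 genes (chosen on these values) and -0.65 and -1.51 for DNA replication.

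A list of 13 genes for the transcription of histone genes and the processing of their mRNA includes the transcription regulators NPAT, HINFP and POU2F1. Of the 13, 2 passed as higher and 7 as lower in HT55, where 27.5% of all genes were higher and 26.5% lower. In SW948 6 were higher and 7 lower, against 38.9% and 41.3% of all genes. From this list and those of chaperones and DNA replication, genes were named for the largest change among called genes in a line. Their p values are therefore a description. LSM11, a protein of the U7 particle, rose by 1.02 ± 0.13 on the log2 scale in HT55 (edgeR adjusted p = 0.000139) and by 1.66 ± 0.10 in SW948 (adjusted p = 3.96e-09). ZNF473, a zinc finger protein that binds the U7 particle, fell by 0.65 ± 0.11 in HT55 (edgeR adjusted p = 0.00089) and fell by 0.86 ± 0.088 in SW948 (adjusted p = 6.06e-07). CSTF2, a factor of the cleavage step in histone and polyadenylated mRNAs, fell by 0.56 ± 0.096 in HT55 (edgeR adjusted p = 0.00079) and fell by 1.16 ± 0.11 in SW948 (adjusted p = 2.48e-07). SLBP, singled out after its values were seen, fell by 0.27 ± 0.071 in HT55 (edgeR adjusted p = 0.00855) and rose by 0.49 ± 0.064 in SW948 (adjusted p = 7.6e-06), and the difference between the lines passed the interaction test (adjusted p = 1.51e-06).

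Of 22 histone chaperones, which carry histones to and from DNA, 14 fell and 2 rose in HT55, where 26.5% of all genes fell and 27.5% rose. In SW948 15 fell and 6 rose, where 41.3% of all genes fell and 38.9% rose. NASP, a chaperone of soluble H3 and H4, fell by 0.999 ± 0.15 in HT55 (edgeR adjusted p = 0.00037) and fell by 0.95 ± 0.086 in SW948 (adjusted p = 1.73e-07). ANP32E, which removes H2A.Z, fell by 0.78 ± 0.16 in HT55 (edgeR adjusted p = 0.00233) and fell by 0.64 ± 0.077 in SW948 (adjusted p = 3.17e-06). IPO4, an importer of H3 and H4, fell by 0.56 ± 0.10 in HT55 (edgeR adjusted p = 0.0012) and fell by 1.72 ± 0.086 in SW948 (adjusted p = 5.85e-10). TONSL, which reads newly made histone H4 behind the replication fork, fell by 0.61 ± 0.21 in HT55 (edgeR adjusted p = 0.0289) and fell by 1.54 ± 0.13 in SW948 (adjusted p = 1.15e-07).

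DNA replication genes fell: 11 of 12 fell in HT55 and 12 of 12 in SW948, with 0 higher in either, where 26.5% of all genes fell in HT55 and 41.3% in SW948. CDC45, part of the replicative helicase, fell by 1.03 ± 0.18 in HT55 (edgeR adjusted p = 0.000793) and fell by 3.62 ± 0.16 in SW948 (adjusted p = 1.68e-10). MCM3, another helicase part, fell by 0.84 ± 0.19 in HT55 (edgeR adjusted p = 0.00394) and fell by 1.94 ± 0.11 in SW948 (adjusted p = 1.9e-09). CCNE2, a cyclin of the entry into DNA synthesis, fell by 0.84 ± 0.19 in HT55 (edgeR adjusted p = 0.00345) and fell by 2.79 ± 0.14 in SW948 (adjusted p = 8.3e-10). The summed level of the list was 2026 ± 48.1 CPM (SD, n = 4) with DMSO and 1271 ± 332.9 CPM with itraconazole in HT55, and 1125 ± 40.3 CPM and 531.1 ± 28.1 CPM in SW948.

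Outside the histone families, the genes whose log2 CPM over the 16 libraries was most like the mean of the 9 genes, of 12750 ranked, were SDC1, a cell surface proteoglycan (Pearson's r = 0.992), SPINT1, an inhibitor of serine proteases (0.991), VCP, an ATPase that extracts proteins for degradation (0.987), EPB41L1, a membrane skeleton protein (0.986), and PSMB5, a catalytic subunit of the proteasome (0.986). The likeness describes points that share line and treatment.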

How the data were processed

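The labels describe RNA extracted with a column kit and TruSeq libraries. For each of 16 libraries the authors deposited raw read counts per gene, 54127 Ensembl identifiers followed by totals of reads outside genes. The submitters' processing notes name TopHat, HTSeq, DESeq and hg19, and the annotation release is not given in the sources used here. The deposited counts were not normalised. The total rows stayed out of library sizes and tests: ambiguous reads were 1.23% to 1.48% of all reads, and reads in no feature 3.79% to 4.94%.

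Counts were tested in R 4.3.3 with the quasi-likelihood test of edgeR 4.0.16 after TMM scaling (factors 0.868 to 1.18) and the filterByExpr filter, each line on its 8 libraries. The DMSO groups were compared on their 8 libraries, and the line by treatment interaction was fitted on all 16. The threshold for a call was 0.05 on the p adjusted by Benjamini-Hochberg. Standard errors came from the F statistic. CPM is the count per 1000000 gene counts. Scripts were tested on simulated data. Alternatives were DESeq2 1.42.0, other scalings and filters, a replicate block and leaving out each library. Counts carry no molecular identifiers and show sampling error as well as replicate spread.

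The 9 genes and all lists were chosen with earlier results of these data known. Other genes were named by rule: all variants with a value except 1 gene that is not reported here, the 5 most abundant other canonical genes, at most 2 called genes per list and line with the largest change, and the 5 genes most alike. Symbols came from GENCODE 44 on GRCh37, which named 47098 identifiers. H2AW is H2AC25 and H2BU1 is H2BC26 there. Of 9 RNAs without a poly(A) tail sought, 2 had an identifier, and VTRNA1-1 had no count. Windows of 50 bases, the length of the reads, were compared with all annotated transcripts.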

Additional observations from a re-analysis of the deposited data

Results flagged for a closer look

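Among 36 groups of 4 libraries (9 genes by 4 groups), 2 held a library far from the others by Dixon's test, where chance gives about 1.8 at 1 in 20. H2BC5 in SW948 with DMSO was at 3.38 CPM in replicate 3 against 1.84 to 2.08 CPM in the others, a gap of 0.847 of the group's range. H2AW in HT55 with DMSO was at 4.74 CPM in replicate 4 against 6.36 to 6.68 CPM, a gap of 0.834 of the range.

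The log2 fold change of itraconazole against DMSO differed between the lines by edgeR's interaction term for 6 of the 9 genes. Of all genes tested, 53.9% passed. As HT55 minus SW948 the difference was -1.36 for H1-2, -1.22 for H2BC12, -1.94 for H2BC21, -1.61 for H2AW, -0.45 for H2AJ and 2.34 for H4C8. H1-2 passed in 6 of 16 fits without 1 library, and H1-2 and H2AJ did not pass with plain library totals. The genes were chosen with these contrasts known, so this is a description.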

How the results depend on the processing

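Of the values of the 9 genes, 129 of 133 in HT55, 95 of 104 in SW948, 109 of 110 between the DMSO groups and 173 of 195 in the interaction kept their direction and their side of the threshold over the alternatives fitted. The same held for 125 of 149 values of variant genes in HT55 and 103 of 120 in SW948. Depth limits H2BC4, H4C8 and the other canonical genes, where the filter decides what is tested. The 9 of the 9 genes called in HT55 became 7 with at least 10 counts in every library. The number of other canonical genes called, 1 in each line, became 0 in both lines with at least 10 counts in every library and 4 in both with no filter. In SW948 it became 2 with 1 fit on all 16 libraries, 2 with plain library totals, and ran from 1 to 2 when 1 library was left out, with 2 without itraconazole replicate 3. Variant genes called in SW948, 2 of 8 tested, became 6 with plain library totals, 1 without DMSO replicate 3 and 4 without itraconazole replicate 1.

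Plain library totals moved the median of all genes by -0.165 (log2) in HT55, -0.329 in SW948, -0.193 between the DMSO groups and 0.193 in the interaction. They reversed values in SW948 to -0.12 for H2AJ, -0.14 for H1-10, -0.23 for H2AZ1, -0.26 for MACROH2A1, -0.080 for H3-3B and -0.018 for H2AC11. With the same totals, in HT55, H1-10 became -0.0015 and CENPA -0.15, and the interaction of H2BC5 became 0.12. H3-3A in HT55 was 0.0013 with 1 fit on all 16 libraries, 0.0086 by the DESeq2 Wald test and 0.0083 with DESeq2 size factors, and CENPA in SW948 was 0.012, 0.0030 and 0.0032 in the same order. With 1 library left out, values in HT55 ran from -0.018 to 0.034 for H3-3A, from -0.032 to 0.094 for CENPA, from -0.65 to 0.065 for H4-16 and from -0.34 to 0.086 for H2BC15, and in SW948 from -0.066 to 0.068 for CENPA. The interaction then ran from -0.062 to 0.15 for H2AC6, from -0.70 to 0.23 for H2BC4 and from -0.33 to 0.28 for H2BC5. The cause of these changes was not tested.

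The replicate numbers do not pair the libraries by the labels. Same-numbered DMSO and itraconazole libraries deviated together by a mean r of 0.027 in HT55 and 0.046 in SW948. For libraries of different numbers the mean r was -0.0089 in HT55 and -0.015 in SW948. Whether libraries of the same number were handled together was not tested. The DMSO and itraconazole libraries of a number were each other's best match in 1 of 4 cases in HT55 and 2 of 4 in SW948. With the replicate block, 9 of the 9 genes were called in HT55 and 6 of 7 in SW948, where H2AJ was lost.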
